A study of Mus musculus with 4 samples.

Results

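This section describes 10 genes of the serum response factor (SRF) and actin system in B16 cells, a mouse melanoma cell line: Srf, Acta2, Actb, Actg1, Tpm1, Tpm4, Tagln2, Flna, Vcl and Myl9. They were found by matching these symbols to the Ensembl identifiers of the count table, where each symbol had exactly 1 row among 53465. Of the 10 genes 9 had enough reads to be tested, among 13664 tested genes in all, and Acta2 did not. The series holds 4 poly(A) RNA-seq libraries. The control group is 2 libraries of B16 cells labelled only as control, with no time given. The EM-plasma group is 2 libraries of B16 cells given plasma that had been treated with exosome-mimetic nanovesicles (EMs), with 4 h in the title. The labels do not say what kind of plasma was used or what the controls received, and no separate cultures are named. A p-value here therefore reflects the spread among these 4 libraries alone, taken in large part over all genes, and that spread may be technical.

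SRF is a transcription factor that binds a short DNA element, the CArG box, in the promoters of cytoskeletal and immediate early genes. It works with separate families of cofactors. The myocardin-related factors (MRTF-A and MRTF-B) are held back by monomeric actin and released when actin assembles into filaments, and the ternary complex factors (Elk1, Elk3 and Elk4) are switched on by ERK phosphorylation. Because actin genes are themselves SRF targets, filament assembly feeds back on the supply of actin. In melanoma cells MRTF and SRF are known for supporting motility and metastatic colonisation.

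The promoter windows of RefSeq (GRCm38.p6, from 250 bases before to 50 bases after each listed start) were searched for the letters of the CArG box, the element SRF is known to bind. The box has 10 letters: 2 C, then 6 letters that are each A or T, then 2 G. It reads as the same pattern on both strands and was searched without overlap to any other motif. Of the 10 genes 9 had a window, all but Actb, and 4 of these held the box, against 1.63% of all 32851 windows (535). The first share counts genes and the second counts windows. The genes were listed for their place in the SRF and actin system, so their share is a description and not a test. The stretches below run 5′ to 3′ on the gene's strand, with the CArG boxes in capitals. They lie at chr17:46556213-46556274 (Srf, minus strand), chr11:120348546-120348615 (Actg1, minus strand), chr14:20929148-20929210 (Vcl, plus strand) and chr2:156775273-156775342 (Myl9, plus strand).
Srf: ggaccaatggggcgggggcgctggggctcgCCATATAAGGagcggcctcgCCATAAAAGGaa
Actg1: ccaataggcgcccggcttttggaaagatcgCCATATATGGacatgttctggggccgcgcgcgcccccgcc
Vcl: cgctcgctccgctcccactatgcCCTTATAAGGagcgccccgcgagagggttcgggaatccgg
Myl9: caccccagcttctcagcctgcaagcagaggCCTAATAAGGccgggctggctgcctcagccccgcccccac

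The Srf window held 2 boxes, beginning 82 and 62 bases before the start, and those of Actg1, Vcl and Myl9 held 1 each, beginning 90, 227 and 161 bases before it. The windows of Acta2, Tagln2, Tpm1, Tpm4 and Flna held none. In that of Acta2, 2 elements kept 5 of the 6 central letters as A or T, 84 and 34 bases before the start, and in that of Myl9 there was 1 more of this kind at 99. For Acta2, Tagln2, Tpm1, Tpm4 and Flna the gene start in the GENCODE annotation lay at -217, -199, -193, -313 and -3286 bases from the RefSeq start used here, so their windows need not be the promoter in use, and both elements of Acta2 lie downstream of its GENCODE start. A match is a string of letters, not a bound site, and a window without one says nothing about SRF.

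In cells given EM-plasma, 2 of the 9 tested genes rose and 0 fell (3 had an unadjusted p below 0.05, and DESeq2 called 1 higher and 0 lower). They were Tagln2, which encodes the actin-bundling protein transgelin 2, at 1.504-fold, and Myl9, which encodes a regulatory light chain of myosin II, at 1.28-fold. Over all tested genes 6.21% were called at an adjusted p below 0.05, 3.34% higher and 2.88% lower. An unadjusted p below 0.05 in edgeR's quasi-likelihood test was found for 2671 of all 13664 tested genes. In bulk RNA, fewer cells of a type and less RNA per cell cannot be told apart. The remaining 7 genes, among them Srf itself and the abundant actin genes Actb and Actg1, were not called. Their 95% intervals of the log2 fold change lay between -0.16 and 0.19 at the widest. Levels are CPM, the read count scaled to the size of its library with TMM factors. Every adjusted p comes from the quasi-likelihood test of edgeR, adjusted over all tested genes by the method of Benjamini and Hochberg. The median log2 fold change of the 9 genes was 0.010, beside -0.0027 over all tested genes.

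**Figure D1:**
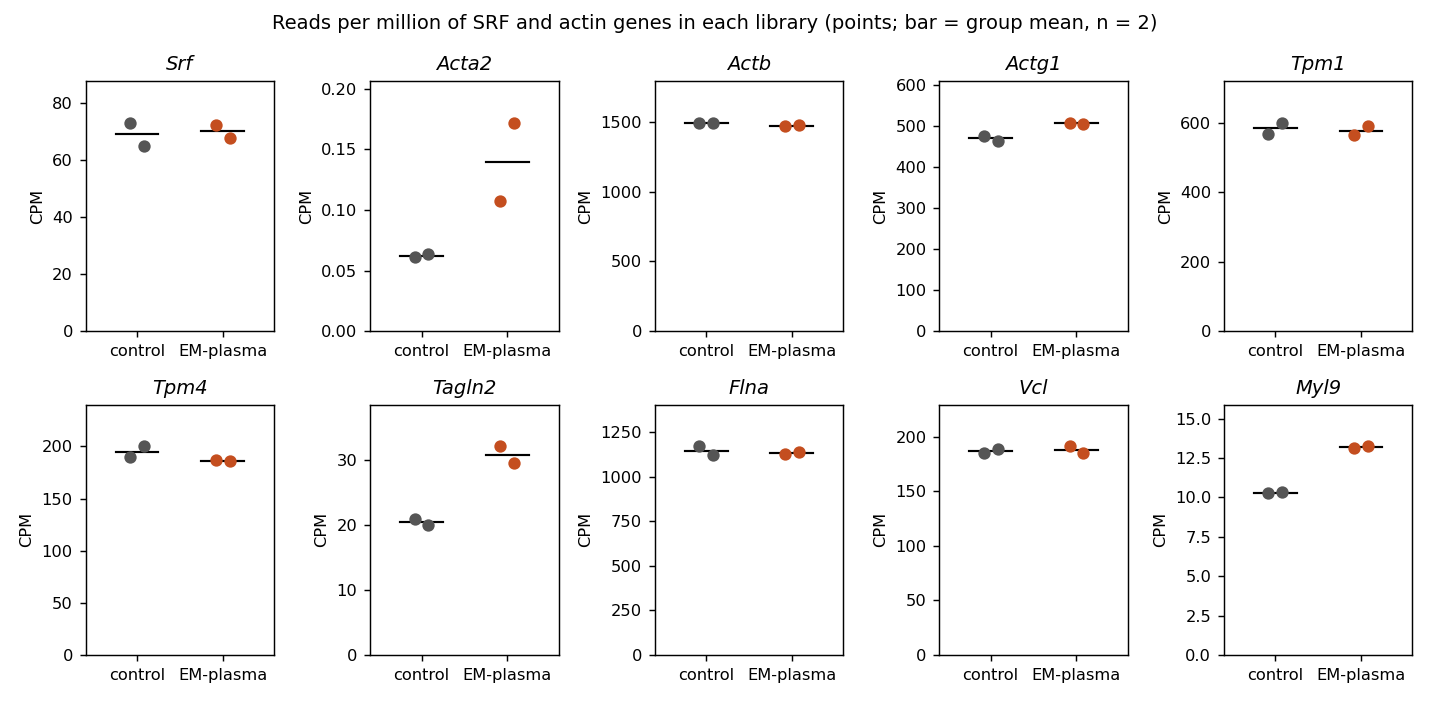
CPM of each of the 10 genes in the 2 control libraries (grey points) and the 2 EM-plasma libraries (orange points), with the group mean as a bar and each vertical axis starting at 0. Tagln2 and Myl9 have both EM-plasma points well above both control points, while Srf, Tpm1, Flna and Vcl overlap between the groups.

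The regulator came first. Srf (ENSMUSG00000015605, chromosome 17, 46548329 to 46556175, minus strand, GRCm38) was at 73.0 and 64.8 CPM in control 1 and 2 and at 72.3 and 67.8 CPM in EM-plasma 1 and 2. The groups overlapped, and the gap between the controls was larger than the gap between the group means. The mean was 68.9 ± 5.81 CPM in controls and 70.1 ± 3.22 CPM in EM-plasma cells (SD, n = 2 per group). The log2 fold change was 0.023 (SE 0.062, 95% interval -0.10 to 0.15, adjusted p = 0.884), so a change of Srf mRNA beyond 0.931-fold to 1.11-fold lay outside the interval.

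Actin itself comes from several genes. Actb and Actg1 encode the cytoplasmic beta and gamma actins found in nearly all cells, and Acta2 encodes the smooth muscle alpha actin that marks contractile cells. Actb (ENSMUSG00000029580, chromosome 5, 142903115 to 142906754, minus strand) measured 1495 and 1490.2 CPM in the controls and 1473 and 1476 CPM with EM-plasma. It ranked 16th of 13664 tested genes by mean CPM. Both EM-plasma values were below both controls, but the log2 fold change was only -0.017 (SE 0.037, interval -0.092 to 0.058, adjusted p = 0.850). Over all tested genes the groups were apart in this way in 24.8% with EM-plasma lower and in 24.3% with EM-plasma higher, so separation of 2 against 2 values alone is common in these data. Of the 9 tested genes, Actg1, Tagln2 and Myl9 were apart with EM-plasma higher (3), Actb and Tpm4 with EM-plasma lower (2), and 4 overlapped.

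Actg1 (ENSMUSG00000062825, chromosome 11, 120345690 to 120348542, minus strand) measured 476 and 463 CPM in the controls and 508 and 506 CPM with EM-plasma. Both EM-plasma values lay above both controls. The log2 fold change was 0.11 (SE 0.041, interval 0.025 to 0.19), with an unadjusted p of 0.0130 in edgeR's quasi-likelihood test and an adjusted p = 0.119, so it did not pass. Gamma actin took 24.2% and 23.7% of the reads of the 3 actin genes in controls and 25.6% and 25.5% in EM-plasma cells, a share that does not depend on the scaling of libraries. The 3 actin genes together held between 0.194% and 0.200% of all reads in every library.

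Acta2 (ENSMUSG00000035783, chromosome 19, 34241090 to 34255590, minus strand) had 3 reads in each control and 5 and 8 in the EM-plasma libraries, of 46295133 to 49367932 reads per library. The ratio of EM-plasma to control reads, corrected for library size, was 2.25 with an exact interval from 0.797 to 7.21, which covers counting error only, so no difference was detectable at this depth. It made up at most 0.00867% of the reads of the 3 actin genes. The coding sequences of Actb and Actg1 were identical at 88.6% of aligned positions with a longest shared run of 62 bases. That of Acta2 matched Actb at 82.8%, with a shared run of 47 bases, and Actg1 at 81.5%, with one of 56 bases. A read lying wholly within such a run cannot be assigned to 1 actin gene. What part of the few Acta2 reads is of this kind was not tested.

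**Figure D2:**
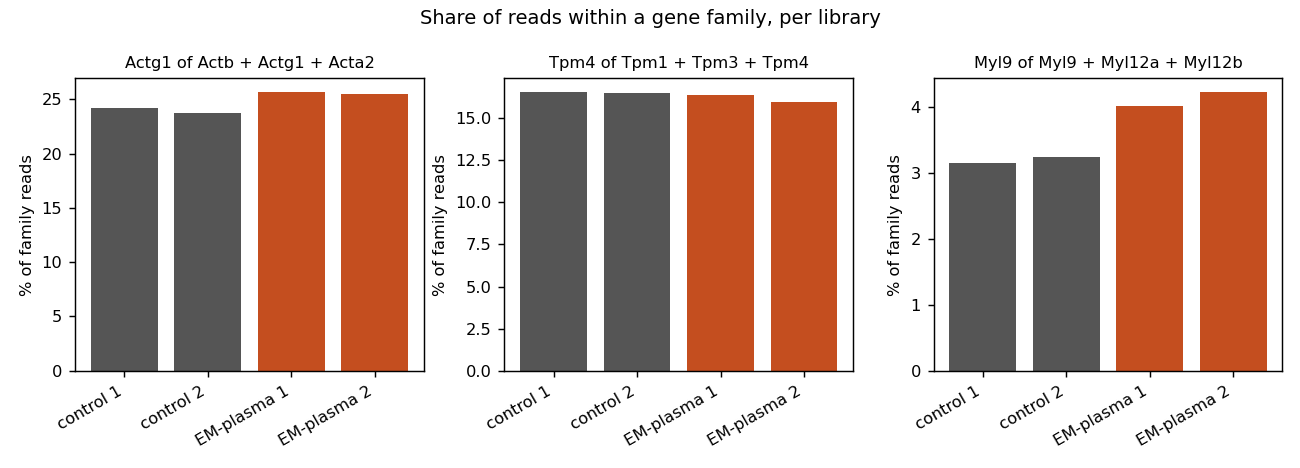
Share of the reads of a gene family, in percent, taken by Actg1 (of the 3 actin genes), Tpm4 (of 3 tropomyosin genes) and Myl9 (of 3 myosin regulatory light chain genes) in each library. The Myl9 bars stand at 3.15% and 3.25% in controls and at 4.03% and 4.23% in EM-plasma libraries, while the Tpm4 bars lie between 15.95% and 16.5%.

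Proteins that bind along actin filaments differed among themselves. Tagln2 (ENSMUSG00000026547, chromosome 1, 172500047 to 172507380, plus strand) measured 20.96 and 19.91 CPM in the controls and 32.0 and 29.4 CPM with EM-plasma. Both treated values lay well above both controls. Its mean went from 20.4 ± 0.742 to 30.7 ± 1.85 CPM (SD, n = 2 per group), which is 0.59 on the log2 scale (SE 0.074, interval 0.44 to 0.74, adjusted p = 4.15e-06). By size it was the 123rd of the 456 genes called higher. The call ended without control 2 (adjusted p = 0.0804) and when every gene with a read was tested (adjusted p = 0.0888), with log2 fold changes from 0.53 to 0.65 over the 11 alternatives. Its paralog Tagln, the smooth muscle transgelin, had 4 and 0 reads in controls and 4 and 7 in EM-plasma libraries.

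Tropomyosins are coiled coils that lie along the filament and set which other proteins can reach it. Tpm1 (ENSMUSG00000032366, chromosome 9, 67022590 to 67049406, minus strand) measured 567 and 601 CPM in the controls and 566 and 590.3 CPM with EM-plasma. The groups overlapped almost entirely (log2 fold change -0.015, SE 0.042, adjusted p = 0.896). Tpm4 (ENSMUSG00000031799, chromosome 8, 72134975 to 72153142, plus strand) measured 190.003 and 199.98 CPM in the controls and 187 and 186 CPM with EM-plasma. Its EM-plasma values were the lower ones, without passing the test (log2 fold change -0.064, interval -0.16 to 0.032, adjusted p = 0.491). Tpm3, their paralog, was at 402 ± 14.7 and 389 ± 0.566 CPM (SD, n = 2 per group). Among the reads of Tpm1, Tpm3 and Tpm4, Tpm1 took 49.4% and 49.5% in controls and 49.6% and 50.6% in EM-plasma cells. The muscle tropomyosin gene Tpm2 had 2 to 11 reads per library.

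Flna encodes filamin A, which crosslinks filaments into a network and ties them to membrane proteins. Flna (ENSMUSG00000031328, chromosome X, 74223461 to 74249820, minus strand) measured 1170.0 and 1121 CPM in the controls and 1125 and 1137 CPM with EM-plasma, with the EM-plasma values between the controls. Its log2 fold change was -0.018 (SE 0.038, interval -0.097 to 0.060, adjusted p = 0.851).

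Vcl encodes vinculin, which links actin to talin at focal adhesions. Vcl (ENSMUSG00000021823, chromosome 14, 20929398 to 21033676, plus strand) measured 185 and 189 CPM in the controls and 191 and 185 CPM with EM-plasma, with no separation (log2 fold change 0.010, interval -0.085 to 0.11, adjusted p = 0.937). Its exons share 2090 bases (25.5% of their length) with those of Ap3m1 on the opposite strand. The sources used here do not say whether counting used the strand, so reads of Vcl and Ap3m1 over these bases may not have been told apart. Tpm4 shares 134 exon bases with the antisense gene Gm26586, which had 3 to 5 reads per library. Actg1 shares bases with 2 miRNA genes that had 0 reads, and for the other 7 genes no exon bases were shared with another gene.

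Myl9 encodes a regulatory light chain whose phosphorylation switches on non-muscle and smooth muscle myosin II. Myl9 (ENSMUSG00000067818, chromosome 2, 156775420 to 156781658, plus strand) was at 10.3 CPM in both controls and at 13.1 and 13.2 CPM in EM-plasma cells. Replicates were closer to each other than the groups were. The mean went from 10.3 ± 0.0413 to 13.2 ± 0.0752 CPM (SD, n = 2 per group), which is 0.35 on the log2 scale (SE 0.097, interval 0.16 to 0.55, adjusted p = 0.0252). The call did not hold with DESeq2 (adjusted p = 0.0984), with every gene with a read (0.224) or without any 1 library (adjusted p from 0.0802 to 0.226), while the log2 fold change stayed between 0.35 and 0.36 over the 11 alternatives.

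The far more abundant light chain genes Myl12a and Myl12b did not pass: Myl12a was at 216 ± 3.99 and 217 ± 4.89 CPM and Myl12b at 95.8 ± 1.48 and 89.5 ± 4.39 CPM (SD, n = 2 per group). Myl9 therefore took 3.15% and 3.25% of the reads of these 3 genes in controls and 4.03% and 4.23% in EM-plasma cells, still a small minority. The coding sequence of Myl9 matched Myl12a at 85.7% and Myl12b at 86.4% of positions, with a longest shared run of 35 bases in each pair.

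**Figure D3:**
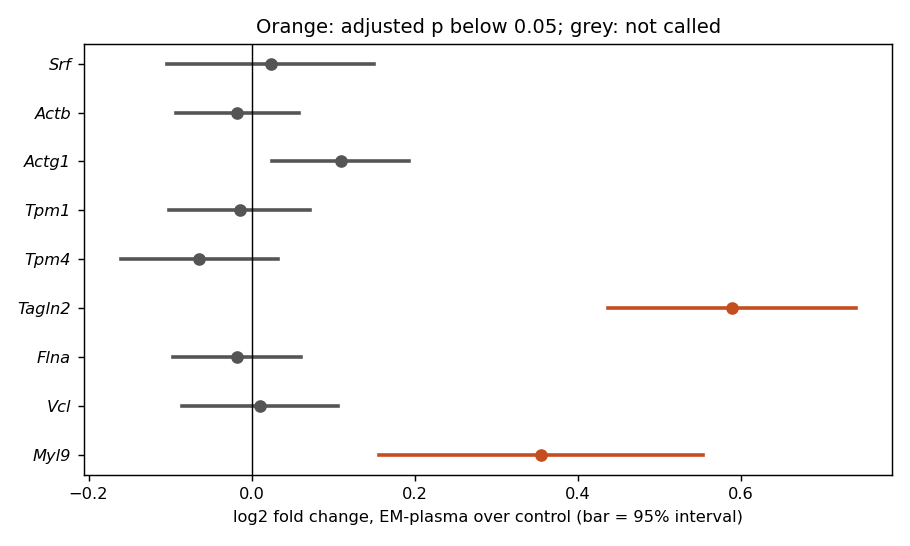
Log2 fold change of EM-plasma over control (horizontal axis) with its 95% interval for the 9 tested genes, orange where the adjusted p is below 0.05 and grey elsewhere. Tagln2 at 0.59 and Myl9 at 0.35 stand to the right, and the other genes lie between -0.064 and 0.11.

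Divided by exon length, so that genes can be compared, the order of levels in control cells was Actb at 557 ± 1.23 CPM per kilobase, Actg1 at 177 ± 3.50, Flna at 122 ± 3.66, Tpm1 at 90.1 ± 3.62 and Tpm4 at 88.5 ± 3.20 CPM per kilobase (SD, n = 2). Srf at 23.8 ± 2.01, Vcl at 22.8 ± 0.322, Tagln2 at 9.82 ± 0.356, Myl9 at 8.87 ± 0.0355 and Acta2 at 0.0283 CPM per kilobase followed. The order was the same by the means in EM-plasma cells. Tpm1 and Tpm4, Srf and Vcl, and Tagln2 and Myl9 were neighbours whose libraries overlapped when both groups were pooled. Every other step in the order separated all 4 libraries of one gene from all 4 of the next. Within each library Tpm1 lay above Tpm4 and Tagln2 above Myl9, while Srf lay below Vcl in control 2. The 2 genes that rose were the least abundant of the 9 tested. Together the 10 genes held between 0.414% and 0.420% of all reads in each library.

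A further list held the cofactors of SRF. Of 8 cofactor genes 6 were tested and 0 were called in either direction by edgeR's quasi-likelihood test. In that test 2 had an unadjusted p below 0.05, as did 2671 of all 13664 tested genes, and DESeq2 called 0. Over all tested genes 6.21% were called, so 0 calls among 6 genes do not set the cofactors apart. Their median log2 fold change was 0.067. Mrtfa averaged 56.4 ± 5.45 CPM in controls and 57.5 ± 7.81 CPM in EM-plasma cells, and Mrtfb at 94.4 ± 2.86 and 97.9 ± 3.43 CPM (SD, n = 2 per group; adjusted p = 0.884 and 0.650). Among the ternary complex factors, Elk4 had a log2 fold change of 0.18 (adjusted p = 0.0795), Elk3 of 0.082 (adjusted p = 0.494) and Elk1 of -0.10 (adjusted p = 0.405). Scai, a suppressor of MRTF activity, had one of 0.22 (adjusted p = 0.100). Myocd, the muscle cofactor myocardin, had 2 reads in each control and 0 in both EM-plasma libraries, and Fhl2 had 2 to 7 reads.

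Among 42 other cytoskeletal targets of SRF, 32 were tested, 4 rose and 1 fell (DESeq2 called 3 higher and 1 lower). The shares were 12.5% higher and 3.12% lower, beside 3.34% and 2.88% of all tested genes. The list was chosen with earlier results of these data known, so these shares are a description only. The median of this list was 0.044 on the log2 scale. By edgeR those that rose were Ccn1, Ccn2, Zyx, which encodes the focal adhesion protein zyxin, and Tuft1. Ccn1 and Ccn2 encode secreted matricellular proteins, not parts of the cytoskeleton. Ccn1 measured 28.3 and 28.9 CPM in the controls and 75.3 and 67.6 CPM with EM-plasma, so the groups lay far apart (log2 fold change 1.32, adjusted p = 3.75e-14). Ccn2 went from 7.90 ± 0.316 to 12.8 ± 0.457 CPM (adjusted p = 5.46e-05). Zyx measured 203 and 179.5 CPM in the controls (mean 191 ± 16.9) and 237 and 233 CPM with EM-plasma (mean 235 ± 3.22; log2 fold change 0.29, adjusted p = 0.000416). Ccn1 and Ccn2 are targets of YAP and TEAD as well as of SRF.

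Tuft1 (log2 fold change 0.40, adjusted p = 0.0349) and Cald1, which encodes the filament-stabilising protein caldesmon and fell from 278 ± 9.11 to 241 ± 6.20 CPM (SD, n = 2 per group; adjusted p = 0.00488), are named because they complete the count, after their values were seen. Without control 2, Ccn1 alone of these 5 was called, and Ccn2 and Zyx had adjusted p = 0.081 and 0.0859. Tuft1 did not pass without any 1 library (adjusted p from 0.0527 to 0.279) or with DESeq2 (0.14). Cald1 did not pass without control 2 (0.13), EM-plasma 1 (0.369) or EM-plasma 2 (0.135), which leaves 0 genes of the list called lower in those fits. When every gene with a read was tested, Ccn1 passed and the other 4 did not. Several muscle genes of the list were near silent. Of these Cnn1 had 0 reads in all libraries, Actc1 at most 1 read, Acta1 1 to 7 and Actg2 3 to 11. Other muscle genes of the list were not: Smtn averaged 72.8 CPM in controls and 77.5 CPM in EM-plasma cells, and Lmod1 had 64 to 101 reads per library.

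Of 11 immediate early targets 8 were tested, 3 rose and 0 fell (DESeq2 called 2 higher and 0 lower). These 3 were 37.5% of the 8, beside 3.34% called higher and 2.88% called lower over all tested genes. Like the other lists, this one was chosen with earlier results of these data known, so its share is a description only. The list median was 0.26 on the log2 scale. Egr1 measured 2.17 and 1.48 CPM in the controls and 3.73 and 4.10 CPM with EM-plasma, or 1.10 on the log2 scale (SE 0.20, adjusted p = 0.000888). In controls Fos stood at 1.605 and 2.004 CPM, below its 3.30 and 3.72 CPM in EM-plasma cells (log2 fold change 0.96, adjusted p = 0.00345). Both encode transcription factors induced within minutes of growth factor stimulation, and both were at low levels throughout. Junb, an AP-1 subunit gene, rose from 17.3 ± 1.26 to 20.9 ± 0.857 CPM (SD, n = 2 per group; adjusted p = 0.0456). Without control 2 none of the 3 was called (adjusted p = 0.151, 0.11 and 0.289 for Egr1, Fos and Junb), without control 1 only Egr1 was, and Junb was not called without either EM-plasma library. Junb also did not pass with DESeq2 (adjusted p = 0.157) or limma voom (0.0526), and 0 of the 3 passed when every gene with a read was tested.

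**Figure D4:**
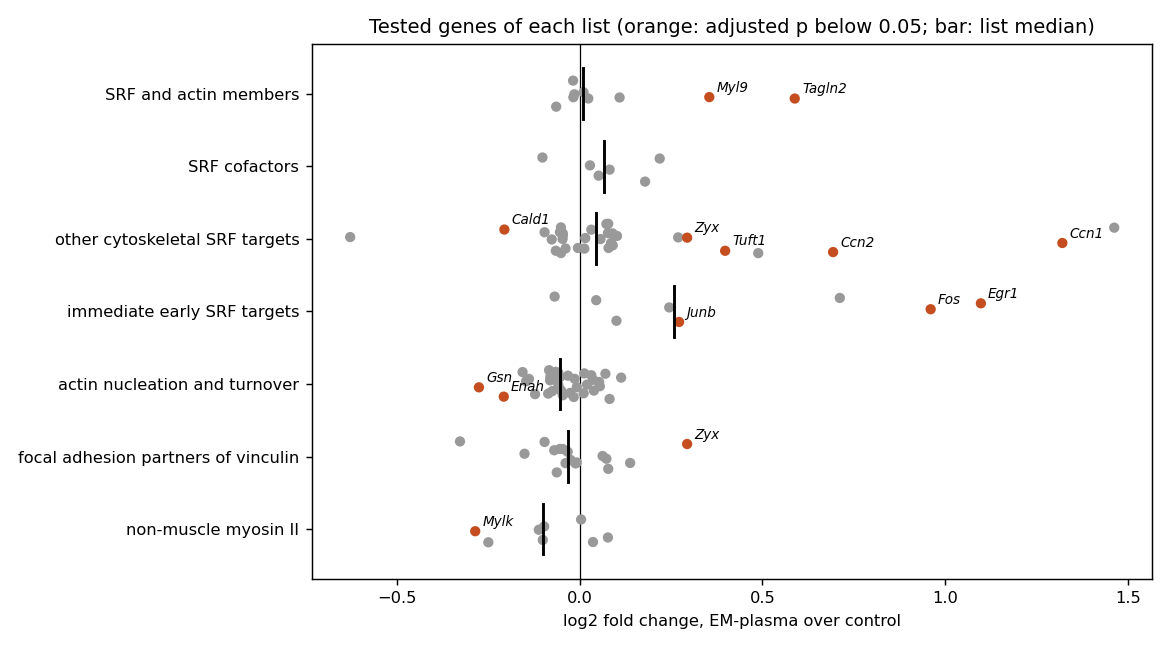
Log2 fold change of EM-plasma over control (horizontal axis) for each tested gene of 7 lists, orange and named where the adjusted p is below 0.05, with the list median as a black bar. The medians run from -0.099 for non-muscle myosin II to 0.26 for immediate early targets, and most points of the cytoskeletal lists lie near 0.

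The next list holds the machinery that builds and turns over filaments. Of 37 tested genes of actin nucleation and turnover 0 rose and 2 fell (5.41% lower, beside 2.88% of all tested genes). Their median on the log2 scale was -0.055. Gsn, which encodes the severing and capping protein gelsolin, fell from 102 ± 3.08 to 84.1 ± 2.03 CPM (adjusted p = 0.00138), and Enah, which encodes an elongation factor at filament tips, from 200.4 ± 7.36 to 174 ± 3.17 CPM (SD, n = 2 per group; adjusted p = 0.00655). In 3 of the 4 fits without a library, all but that without control 1, 0 genes of this list were called lower. Without control 1 it had 3 called lower.

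Among 17 tested partners of vinculin at focal adhesions 1 rose, Zyx, and 0 fell, with a median of -0.033. That is 5.88% higher, beside 3.34% of all tested genes. Among 8 tested genes of non-muscle myosin II and its regulators 0 rose and 1 fell (12.5% lower, beside 2.88%). This was Mylk, the kinase that phosphorylates the light chain encoded by Myl9, which went from 39.7 ± 0.623 to 32.5 ± 0.177 CPM (SD, n = 2 per group; log2 fold change -0.29, adjusted p = 0.00614). Mylk did not pass in any fit that lacked 1 library (adjusted p between 0.0527 and 0.192). Without control 1 this list had 1 gene called higher and 1 called lower. Myl9 rose and Mylk fell in the same libraries. Of 12 paralogs of the 10 genes 6 were tested and 0 were called by edgeR, beside 6.21% of all tested genes. By edgeR 1 had an unadjusted p below 0.05, as did 2671 of all 13664 tested genes, and DESeq2 called 0. This was Flnc, with 7 and 12 reads in controls and 21 and 30 in EM-plasma libraries. Its log2 fold change was 1.46 (SE 0.51, adjusted p = 0.0886). The most abundant tested paralog was Ctnna1 at 426 ± 7.10 and 431 ± 2.21 CPM.

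The genes whose profile over the 4 libraries lay nearest to that of Srf, by Euclidean distance of centred log2 CPM among 9723 named genes of at least 5 CPM, were Shkbp1 (distance 0.00894), Pcgf2 (0.0112) and Abca7 (0.0172). Each was, like Srf, highest in control 1 and lowest in control 2, with log2 fold changes of EM-plasma over control of 0.028, 0.034 and 0.024. With 4 libraries this describes the order of 4 values only.

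**Figure D5:**
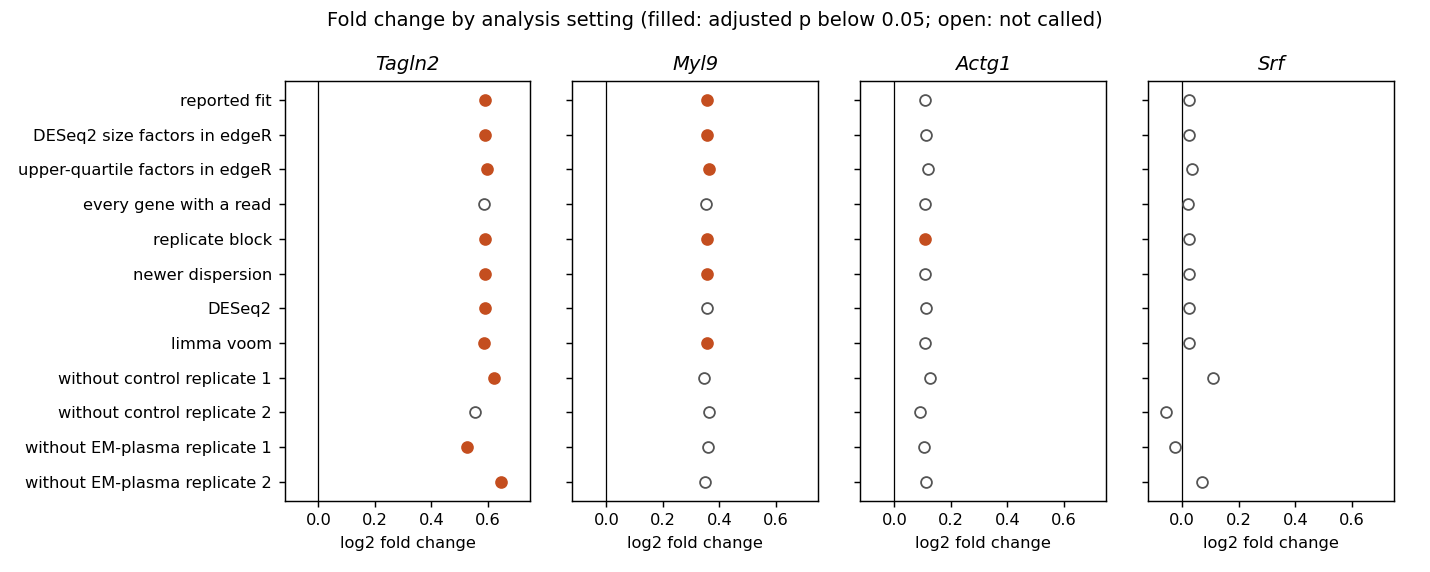
Log2 fold change (horizontal axis) of Tagln2, Myl9, Actg1 and Srf under the reported fit and 11 alternatives (rows), filled orange where the adjusted p is below 0.05 and open where it is not. The values of Tagln2 stay between 0.53 and 0.65 and those of Myl9 between 0.35 and 0.36 while their calls come and go, and those of Srf lie on both sides of 0.

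The libraries carried the melanocyte markers of their label. All 8 were tested and 0 were called by edgeR, beside 6.21% of all tested genes, and DESeq2 called 0. By edgeR 2 had an unadjusted p below 0.05, as did 2671 of all 13664 tested genes. These were Tyr (log2 fold change -0.22, adjusted p = 0.0532) and Mitf (-0.091, adjusted p = 0.215), both lower with EM-plasma. The log2 fold change was above 0 for 5 of the 8. Their summed level was 11041 to 11121 CPM in controls and 11183 to 11384 CPM in EM-plasma cells. Smooth muscle markers, given because Acta2 and Myl9 are abundant in that cell type, summed to 73.2 to 80.9 CPM in controls and 79.8 to 85.0 CPM in EM-plasma cells. Nearly all of this was Smtn, with 0 of 4 tested called by edgeR (1 had an unadjusted p below 0.05, DESeq2 called 0), Cnn1 at 0 reads and Myh11 at 0 to 10. Fibroblast markers summed to 51.6 to 57.7 and 54.4 to 56.3 CPM, with 0 of 4 tested called by edgeR (1 had an unadjusted p below 0.05, DESeq2 called 0) and Col3a1 and Dcn at 0 or 1 read. Most of this sum was Pdgfrb (mean 26.2 CPM in controls and 25.5 CPM in EM-plasma cells) and Col1a2 (24.0 and 24.05 CPM). Col1a1 was at 2.59 and 3.83 CPM. Blood and platelet markers summed to 1.498 to 1.81 and 1.95 to 2.38 CPM, with Ptprc, Pf4, Ppbp and Hbb-bs at 0 reads and 0 of 2 tested called by edgeR (0 had an unadjusted p below 0.05, DESeq2 called 0). Endothelial markers summed to 3.80 to 4.12 and 5.53 to 5.76 CPM. Of these only Vwf was tested and it rose from 3.80 ± 0.250 to 5.52 ± 0.158 CPM (SD, n = 2 per group; adjusted p = 0.0281), with Cdh5 and Kdr at 0 reads. Its call ended with DESeq2 (adjusted p = 0.121) and whichever library was left out. The part of these markers in the values of Tagln2 and Myl9 was not tested.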

How the data were processed

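Poly(A) RNA of 4 B16 libraries was prepared with a stranded kit, per the labels' protocols. The submitters' processing notes name GRCm38, CASAVA, TopHat2 2.1.1, HTSeq and edgeR, without role or order, and the sources used here do not give the strand setting. The deposited table holds the authors' raw counts per Ensembl gene, with totals of 46295133 to 49367932 reads per library. Symbols were found for 53274 of 53465 rows.

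With edgeR 4.0.16 in R 4.3.3, genes were filtered by filterByExpr, scaled by TMM and tested with the quasi-likelihood F test on group alone, two-sided, with Benjamini-Hochberg adjustment over 13664 genes and a threshold of 0.05. Intervals are 95% on the total degrees of freedom, and the script was tested on simulated data. Of the total of 27.5, 2 were a gene's own residual degrees of freedom. The other 25.5 were prior ones, estimated from the spread of all tested genes. Alternatives used DESeq2 1.42.0, limma 3.58.1 and other settings. Leaving out a library leaves 1 sample in a group, which is then assumed to vary like the other group. Exon lengths, coordinates and coding sequences came from GENCODE mouse release 21, and coding sequences were aligned with Biopython 1.88. Replicates differed by more than sampling noise (chi-square per degree of freedom 7.63 for controls and 2.84 for EM-plasma). Same-numbered libraries correlated at 0.104 in their deviations from the group means, and no label pairs them, so no block entered the test. The exact interval of the Acta2 ratio conditions on the summed reads.

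The genes and 13 further lists were chosen with earlier results of these data known. The genes named are the 10 members, up to 3 called genes per list by smallest adjusted p (or else the most abundant tested one), and the 3 nearest to Srf. The other genes named with values, such as Elk4, Scai, Tpm3, Flnc, Tyr, Mitf, Tuft1, Cald1 and Cyp1a1, were chosen after their values were seen. The scaled tables deposited per sample were not used here. Some results of the lists are not reported here.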

Additional observations from a re-analysis of the deposited data

How the results depend on the processing

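Of the 99 refitted log2 fold changes of the 9 tested members, 83 kept direction and side of the threshold, 8 lost a call, 1 gained one and 7 changed sign. Of the other named genes followed over these refits, 331 kept both, 73 lost a call, 2 gained one and 12 changed sign. Flnc, Tyr and Mitf were not among those followed. The count of genes called, 849, was 14 when every gene with a read was tested, 543 with DESeq2 and 71 to 547 without 1 library (71 without control 2). The 2 members called higher became 0 with every gene with a read, 1 with DESeq2 and 0 to 1 without 1 library (0 without control 2), and 0 were called lower throughout. With every gene with a read, 22906 genes entered and the total degrees of freedom of the test fell from 27.5 to 5.36. They were 5.71 and 5.27 without control 1 and control 2. With the replicate block and without either EM-plasma library the estimated prior degrees of freedom were infinite, so all genes then shared 1 trend of spread, and those call counts rest on that estimate. The replicate numbers are not known to pair the libraries. With the replicate number as a block 1683 genes and 3 members were called, Actg1 (adjusted p = 0.0374) with Tagln2 and Myl9, and the cofactors Elk4 (adjusted p = 0.0193) and Scai (0.0359) passed. Without 1 library in turn, the log2 fold changes that changed sign ran from -0.057 to 0.108 for Srf, -0.0131 to 0.0311 for Vcl, -0.0591 to 0.0296 for Tpm1, -0.0457 to 0.0088 for Flna, -0.0036 to 0.0371 for Ctnna1, -0.151 to 0.085 for the fibroblast marker Pdgfrb, -0.0541 to 0.115 for Shkbp1, -0.047 to 0.12 for Pcgf2, -0.0672 to 0.121 for Abca7, -0.119 to 0.159 for Mrtfa and -0.0203 to 0.0253 for Myl12a. Srf was below 0 without control 2 or EM-plasma 1. The cause of these changes was not tested. With 2 libraries a group, leaving one out leaves a lone sample. The depth of at least 46295133 reads left Acta2 below the level that could be tested.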

Other observations

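Over the whole table, 148 tested genes had a CArG box in a promoter window. Of these 148 4 rose (2.70%) and 4 fell (2.70%). Their median was 0.016 on the log2 scale. Of 9639 tested genes with a window and no box 301 rose (3.12%) and 294 fell (3.05%), with a median of -0.0055. This grouping was made after the values were seen and was not tested. By edgeR, those that rose were Cyp1a1 (log2 fold change 1.51, adjusted p = 7.39e-08), a cytochrome P450 gene of the aryl hydrocarbon response, Ampd3 (0.46), Zfp36 (0.41), which encodes an mRNA decay factor, and Myl9. Those that fell were Asb2 (-0.99), Selenbp1 (-0.59), Vma21 (-0.22) and Myadm (-0.18). When each library was left out in turn, Cyp1a1 and Selenbp1 passed in 4 of 4 fits, Zfp36 in 2, Ampd3, Asb2, Vma21 and Myadm in 1 each, and Myl9 in 0.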
